A study of Sus scrofa with 3 samples.

Results

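Cell adhesion molecules of the immunoglobulin superfamily were followed through 3 pig cell populations. The genes were VCAM1, ICAM1, ICAM2, ICAM3, ALCAM, PECAM1, MCAM and NCAM1, taken by symbol from a list of 8 names, and all 8 had a row among 26466 symbols. The populations were bone marrow attached cells, as the label has it (BMAC), mesenchymal stem cells derived from bone marrow (BM-MSC) and peripheral blood mononuclear cells (PBMC), with 1 library each. Each Lexogen QuantSeq library was made from 500 ng of Trizol-extracted total RNA, by a method that reads a fragment near the 3' end of a transcript. The labels give no animal, age, breed, culture or isolation step for any population, so none of these can be told apart from the population itself. With 1 library per population no test could be run, and every interval below is a 95% interval for counting error alone.

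Proteins of this family carry immunoglobulin-like domains outside the cell, a single membrane span or lipid anchor, and usually a short tail that is tied to the cytoskeleton. VCAM1 and the ICAMs are ligands for integrins of leukocytes, and VCAM1 and ICAM1 are classical targets of the transcription factor NF-kB in endothelial and stromal cells. ALCAM, PECAM1, MCAM and NCAM1 also bind copies of themselves or other partners on neighbouring cells. In bone marrow, stromal cells that carry VCAM1 hold blood-forming and B lineage cells in their niche.

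Totals ran between 15122997 and 17069344 counts, and levels are given as counts per 1000000 counts of the library (CPM). The labels were checked against marker genes. The summed level of 13 leukocyte markers was 8.20 CPM in BMAC and 19.9 CPM in BM-MSC, against 5507 CPM in PBMC, and MS4A1, KLRB1 and CORO1A had 0 counts in BMAC. The summed level of 10 stromal markers was 11602 CPM in BMAC and 13505 CPM in BM-MSC, against 60.0 CPM in PBMC. Of 12 endothelial markers, none reached 10 CPM in BMAC or BM-MSC and 1 did in PBMC, with summed levels of 8.99 CPM in BMAC, 10.6 CPM in BM-MSC and 28.4 CPM in PBMC. CLDN5 had 0 counts in every library, and KDR, SELE and ROBO4 had at most 1 count in BMAC and BM-MSC. The main parts of the marrow sums were VWF and EGFL7. VWF stood at 3.50 CPM in BMAC, 2.34 CPM in BM-MSC and 5.24 CPM in PBMC. EGFL7 went the other way, at 3.11 CPM in BMAC and 4.92 CPM in BM-MSC, against 1.49 CPM in PBMC. Of the endothelial markers TEK, which overlaps LOC102166359, was the 1 at the floor in PBMC, at 12.2 CPM. For 7 platelet markers the summed level was 41.1 CPM in BMAC, 50.5 CPM in BM-MSC and 49.2 CPM in PBMC, of which GP9, which overlaps RAB43, held 34.1, 45.7 and 18.2 CPM. ITGA2B, the platelet integrin subunit, stood at 0.595 CPM in BMAC and 1.82 CPM in BM-MSC, against 14.8 CPM in PBMC.

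The adhesion genes separated the 3 populations, and they also separated the pair from marrow. VCAM1 was high in BMAC alone, NCAM1 was high in BM-MSC alone, and ICAM1 was high in both. ALCAM, PECAM1, MCAM, ICAM3 and ICAM2 were highest in PBMC. The members had been chosen with these libraries in view, so the values describe them and support nothing further. In bulk RNA, fewer cells of a type and less RNA per cell cannot be told apart.

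**Figure D1:**
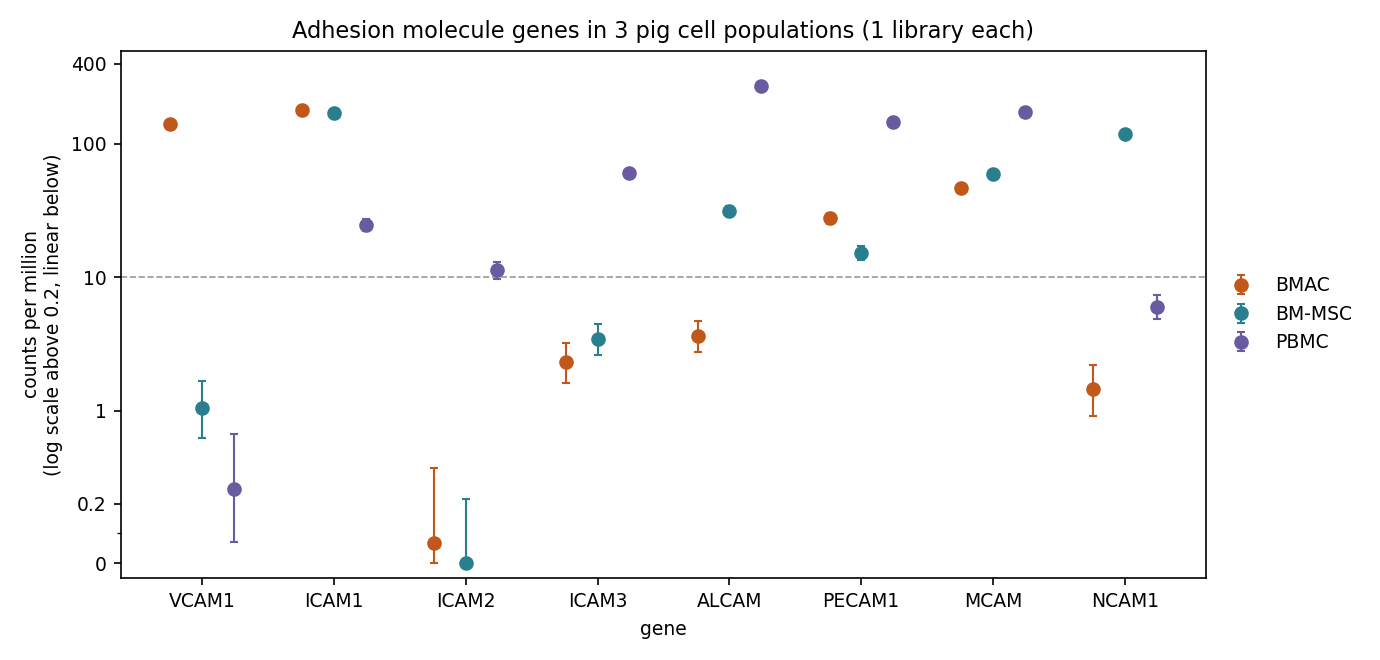
Level of each gene in CPM (vertical axis, logarithmic above 0.2 and linear below) in BMAC, BM-MSC and PBMC, 1 library each; bars are 95% Poisson intervals for counting error and the dashed line marks 10 CPM. VCAM1 stands at 140.1 CPM in BMAC and at most 1.05 CPM elsewhere, and NCAM1 at 119 CPM in BM-MSC and at most 6.02 CPM elsewhere.

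VCAM1 encodes the stromal and endothelial ligand of the integrin alpha4 beta1. It had 2119 counts in BMAC, 18 in BM-MSC and 4 in PBMC, or 140.1, 1.05 and 0.259 CPM. BMAC stood far above both other libraries, whose values rest on few counts. The level was 133-fold higher in BMAC than in BM-MSC (83.9 to 225) and 541-fold higher than in PBMC (211 to 1988). Between BM-MSC and PBMC, VCAM1 was 4.07-fold higher in BM-MSC (1.34 to 16.5), with both libraries below 10 CPM. By log2 ratio, VCAM1 ranked 11 from the top of 10303 symbols in BMAC over BM-MSC. Its neighbour on the assembly Sscrofa11.1, EXTL2, a glycosyltransferase gene, was counted at 16.1 CPM in BMAC, 11.7 CPM in BM-MSC and 1.49 CPM in PBMC, and no annotated row overlaps VCAM1.

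ICAM1 encodes a ligand of the leukocyte integrins LFA-1 and Mac-1. It had 2706 counts in BMAC, 2926 in BM-MSC and 383 in PBMC, or 179, 171 and 24.8 CPM. Both marrow libraries stood above PBMC and close to each other. The gene was 7.22-fold higher in BMAC than in PBMC (6.48 to 8.05) and 6.91-fold higher in BM-MSC than in PBMC (6.21 to 7.71). Between BMAC and BM-MSC the ratio was 1.04 (0.990 to 1.10), an interval that holds 1. In the pair from marrow ICAM1 was level where VCAM1 was far apart. The adjacent family gene ICAM4 was near 0, with 5, 5 and 0 counts in BMAC, BM-MSC and PBMC.

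ICAM3 and ICAM2, which bind LFA-1 and are known chiefly from leukocytes and, for ICAM2, also from endothelium and platelets, were on the side of blood. ICAM3 stood at 2.31 CPM in BMAC (35 counts) and 3.46 CPM in BM-MSC (59 counts), against 60.5 CPM in PBMC (935 counts). It was 26.2-fold lower in BMAC (18.7 to 37.8) and 17.5-fold lower in BM-MSC (13.5 to 23.2) than in PBMC. The ratio of BMAC to BM-MSC was 0.670 (0.428 to 1.03), and its interval holds 1. ICAM2 had 1 count in BMAC, 0 in BM-MSC and 175 in PBMC, where it stood at 11.3 CPM. The level was 171-fold lower in BMAC (30.4 to 6806, from 1 count) and at least 64.5-fold lower in BM-MSC than in PBMC, with 0 taken as 3 counts, or 0.176 CPM. The row next to ICAM2, PRR29, had 0 counts in BMAC, 4 in BM-MSC and 465 in PBMC. Strand use in the counting is not given in the sources used here.

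ALCAM (CD166), a partner of the lymphocyte receptor CD6 that is also used as a surface marker of mesenchymal stem cells, differed in all 3 pairs. It stood at 3.64 CPM in BMAC (55 counts) and 31.2 CPM in BM-MSC (533 counts), against 270.5 CPM in PBMC (4178 counts). The 3 values were each apart from the next by more than counting error, with PBMC highest and BMAC lowest. ALCAM was 74.4-fold lower in BMAC (57.0 to 98.9) and 8.66-fold lower in BM-MSC (7.91 to 9.50) than in PBMC, and 8.59-fold lower in BMAC than in BM-MSC (6.50 to 11.5).

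NCAM1 (CD56), the neural cell adhesion molecule that also marks human NK cells and some stromal cells, was the counterpart of VCAM1. It had 22 counts in BMAC, 2036 in BM-MSC and 93 in PBMC, or 1.45, 119 and 6.02 CPM. BM-MSC stood above both other libraries. The gene was 82.0-fold lower in BMAC than in BM-MSC (54.0 to 131), and 19.8-fold higher in BM-MSC than in PBMC (16.1 to 24.7). BMAC was 4.14-fold lower than PBMC (2.58 to 6.92), with both below 10 CPM. By log2 ratio, NCAM1 ranked 8 from the bottom of 10303 symbols in BMAC over BM-MSC. No annotated row overlaps NCAM1. Of 6 neural and glial markers with a row, only MAP2, which encodes a microtubule protein of dendrites, reached 10 CPM in BM-MSC, at 313 CPM against 8.86 CPM in BMAC and 12.1 CPM in PBMC, and the glial factor SOX10 had 0 counts in every library. The summed level of these markers was 10.7 CPM in BMAC, 315 CPM in BM-MSC and 28.6 CPM in PBMC. The part of such cells in the NCAM1 value was not tested.

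PECAM1 (CD31), an adhesion molecule of endothelium, platelets and many leukocytes, stood at 27.7 CPM in BMAC (419 counts) and 15.2 CPM in BM-MSC (259 counts), against 145 CPM in PBMC (2246 counts). It was 5.25-fold lower in BMAC (4.73 to 5.84) and 9.58-fold lower in BM-MSC (8.42 to 10.9) than in PBMC, and 1.83-fold higher in BMAC than in BM-MSC (1.56 to 2.14), below the size rule given further on. The leukocyte gene PTPRC (CD45) was 1557-fold (1077 to 2344) lower in BMAC and 2591-fold (1659 to 4303) lower in BM-MSC than in PBMC. The endothelial cadherin gene CDH5 had 4 counts in BMAC, 9 in BM-MSC and 10 in PBMC. The summed platelet markers given above were 41.1 CPM in BMAC, 50.5 CPM in BM-MSC and 49.2 CPM in PBMC. GP9, which overlaps RAB43, was the main part of both marrow sums and was lower in PBMC. ITGA2B, GP1BA, GP6, SELP and TUBB1, which overlaps ATP5E, were highest in PBMC, and of these only ITGA2B reached 10 CPM there. PPBP stood at 2.51 CPM in BMAC, 0 CPM in BM-MSC and 1.81 CPM in PBMC. The like sums thus do not describe the single markers. The part of leukocytes, endothelial cells or platelets in the PECAM1 values was not tested. The overlapping row LOC110255989 held 1, 1 and 22 counts in BMAC, BM-MSC and PBMC.

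MCAM (CD146), an adhesion molecule of endothelium, pericytes and marrow stromal cells, differed least among the 8 genes by its largest log2 ratio. It stood at 46.7 CPM in BMAC (707 counts) and 60.0 CPM in BM-MSC (1025 counts), against 175 CPM in PBMC (2698 counts). It was 3.74-fold lower in BMAC (3.44 to 4.06) and 2.91-fold lower in BM-MSC (2.71 to 3.13) than in PBMC, and 1.28-fold lower in BMAC than in BM-MSC (1.17 to 1.42). The MCAM values are uncertain. On Sscrofa11.1 the gene overlaps CBL, a ubiquitin ligase gene, whose row held 716 counts in BMAC, 904 in BM-MSC and 3988 in PBMC, so reads of both genes may have entered either row. The summed level of 8 pericyte and smooth muscle markers was 187 CPM in BMAC, 6655 CPM in BM-MSC and 12.0 CPM in PBMC, and DES had at most 1 count in each library. ACTA2, smooth muscle actin, made up most of both marrow sums, at 152 CPM in BMAC and 6566 CPM in BM-MSC. NOTCH3, which overlaps LOC100628051, stood at 0.992 CPM in BMAC and 30.1 CPM in BM-MSC, and MYH11 at 5.55 and 23.2 CPM. The others did not follow. CSPG4 stood at 27.0 CPM in BMAC and 33.7 CPM in BM-MSC, RGS5 at 1.12 and 0.762 CPM and ABCC9 at 0.793 and 1.29 CPM. KCNJ8 had 0 counts in both. The part of cells with such markers in the MCAM value was not tested.

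Summed over the 8 genes, the level was 401 CPM in BMAC (391 to 411) and 402 CPM in BM-MSC (392 to 411), against 694 CPM in PBMC (680 to 707). The near equality of the marrow sums covered different make-ups. QuantSeq counts are not scaled by transcript length, so a share of counts is the share of 3' ends that the annotation caught. VCAM1 made up 34.9% of these counts in BMAC (33.7 to 36.2, exact binomial interval), 0.263% in BM-MSC and 0.0373% in PBMC. NCAM1 made up 0.363% in BMAC, 29.7% in BM-MSC (28.6 to 30.8) and 0.868% in PBMC. ICAM1 held a like share in both marrow libraries, 44.6% in BMAC (43.4 to 45.9) and 42.7% in BM-MSC (41.5 to 43.9), against 3.58% in PBMC. In PBMC, ALCAM held 39.0%, MCAM 25.2% and PECAM1 21.0%.

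**Figure D2:**
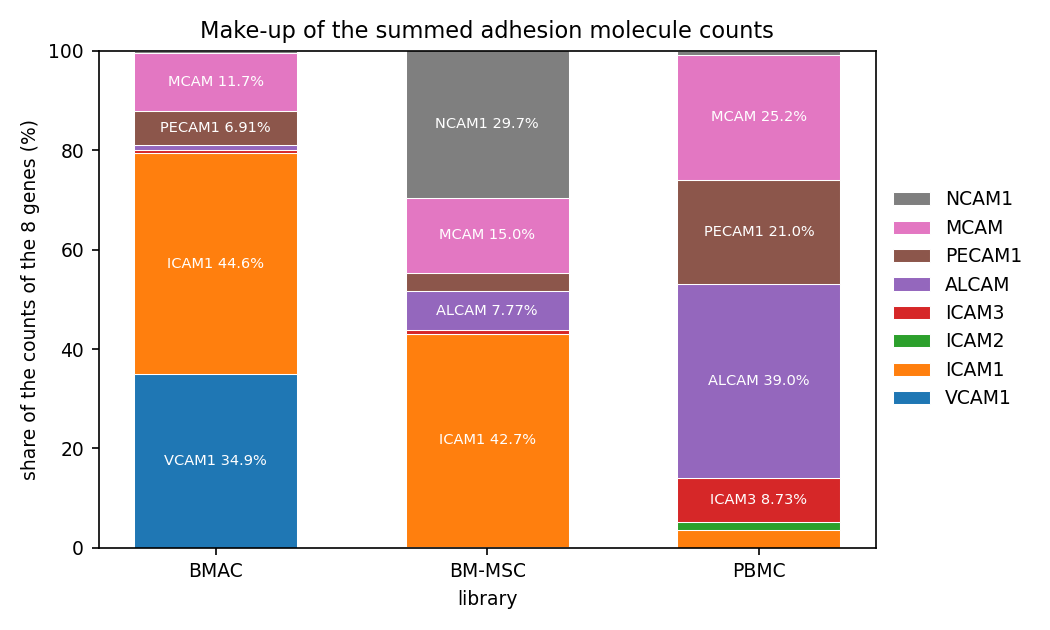
Share of each gene in the summed counts of the 8 adhesion genes (vertical axis, %) in BMAC, BM-MSC and PBMC, 1 library each; segments of 6% or more carry their value. ICAM1 takes 44.6% in BMAC and 42.7% in BM-MSC, while VCAM1 fills 34.9% of BMAC and NCAM1 29.7% of BM-MSC.

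To set these differences beside the rest of the transcriptome, a gene was called different when log2((CPM + 1)/(CPM + 1)) was at least 2 in size, which is 4-fold after the pseudocount, and the gene reached 10 CPM and 10 counts in the library where it was higher. In BMAC against PBMC, VCAM1 and ICAM1 were called higher and ALCAM, ICAM3, ICAM2 and PECAM1 lower, among 7 members at 10 CPM. Over all 11371 symbols at that floor, 14.0% were called higher and 12.8% lower in BMAC. In BM-MSC against PBMC, NCAM1 and ICAM1 were called higher, and ALCAM, ICAM3, ICAM2 and PECAM1 lower, again among 7. Over all 11428 symbols, 14.3% were called higher and 15.7% lower in BM-MSC. Both comparisons share the PBMC library. Of all calls in BM-MSC against PBMC, 47.6% were towards BM-MSC, and 58.5% with TMM factors.

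In BMAC against BM-MSC, VCAM1 was called higher and NCAM1 and ALCAM lower, among 6 members at the floor. Over all 10303 symbols, 3.21% were called higher and 2.90% lower in BMAC. ICAM1, MCAM and PECAM1 were within the rule, and ICAM2 and ICAM3 stayed below 10 CPM in both libraries. Members at the floor had a median log2 ratio of -2.35 in BMAC over PBMC, -3.07 in BM-MSC over PBMC and -0.15 in BMAC over BM-MSC, beside medians over all symbols of -0.12, -0.16 and 0.09. No share or median of the members is a finding, since they were chosen on these libraries.

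**Figure D3:**
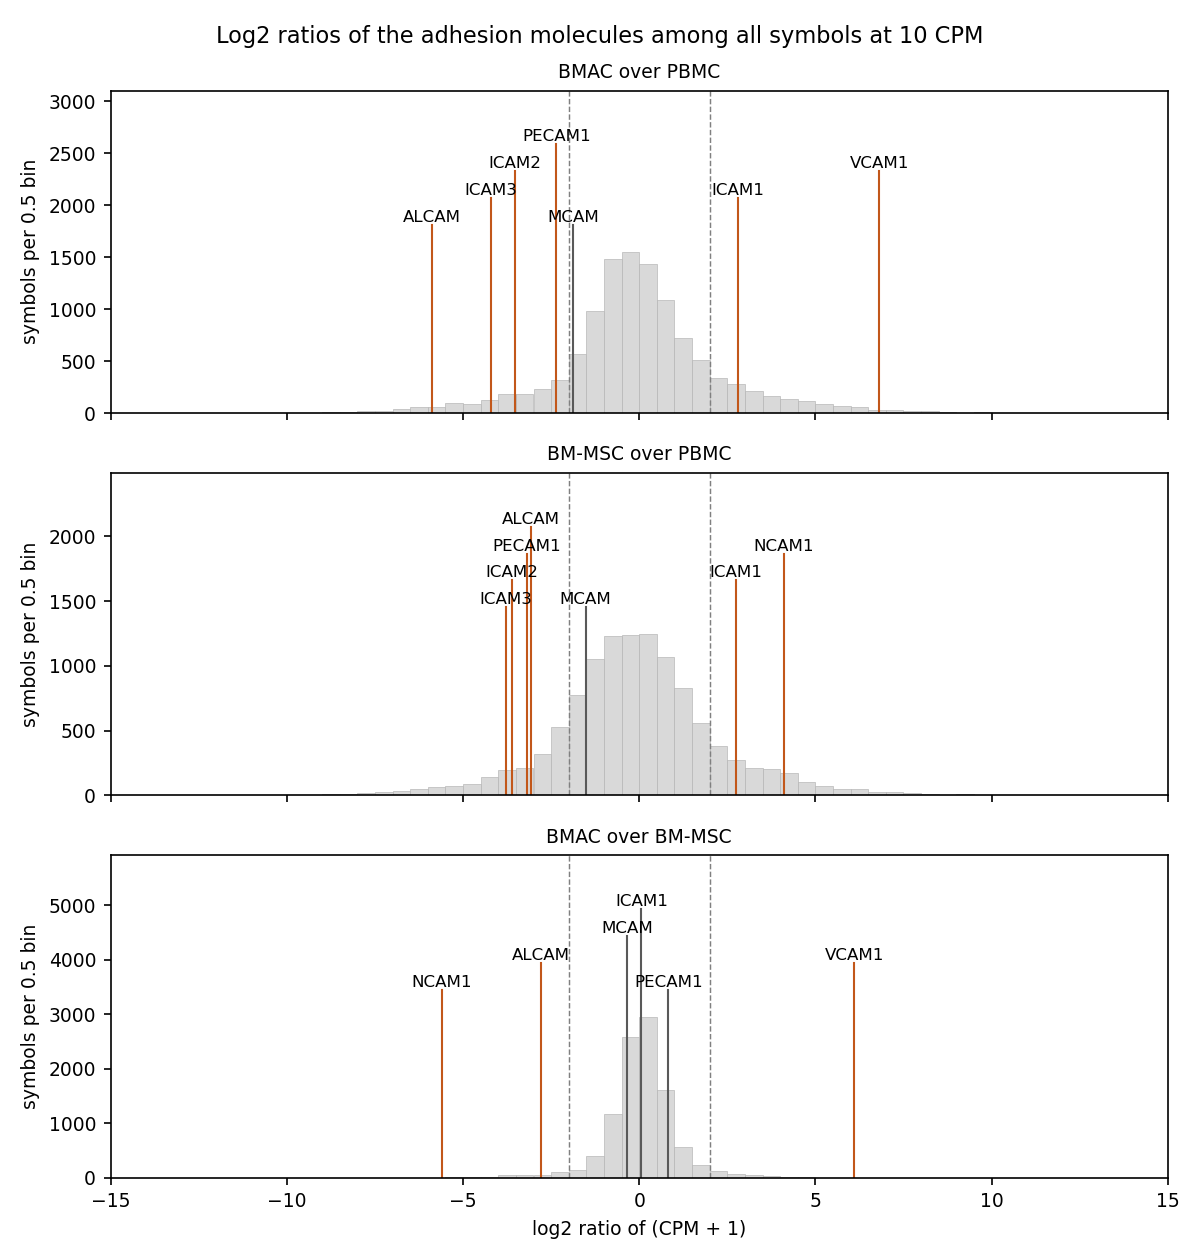
Log2 ratio of (CPM + 1) for each pair of libraries (horizontal axis), with all symbols at 10 CPM as grey bars (symbols per 0.5 bin) and members as lines, orange where past the 4-fold rule (dashed lines at 2 and -2). In BMAC over BM-MSC, VCAM1 at 6.10 and NCAM1 at -5.61 lie in opposite tails and ICAM1 at 0.06 in the centre.

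Integrin partners of the adhesion genes were set beside them in a list of 11 subunits. ITGA4, the alpha4 subunit that pairs with beta1 or beta7 to bind VCAM1, stood at 0.264 CPM in BMAC and 0.469 CPM in BM-MSC, against 687 CPM in PBMC. ITGB7 stood at 0.727 CPM in BMAC and 1.17 CPM in BM-MSC, against 302 CPM in PBMC. BMAC thus carried VCAM1 transcripts with few counts of its alpha4 partner, 4 in all, while PBMC carried the partner with 4 counts of VCAM1. ITGB1, the broadly used beta1 subunit, stood at 708 CPM in BMAC and 1029 CPM in BM-MSC, against 245 CPM in PBMC.

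The ICAMs bind beta2 integrins, and the subunits named next were highest in PBMC. ITGAL, the alpha subunit of LFA-1, stood at 12.8 CPM in BMAC and 7.56 CPM in BM-MSC, against 137 CPM in PBMC. ITGB2, the shared beta2 subunit, stood at 9.32 CPM in BMAC and 5.80 CPM in BM-MSC, against 142 CPM in PBMC. Both thus differed less between marrow and blood than ITGAX, the alpha subunit of another beta2 integrin, at 0.397 CPM in BMAC and 0.0586 CPM in BM-MSC, against 42.8 CPM in PBMC. ITGAM, which overlaps LOC110259903, stood at 1.26 CPM in BMAC and 1.58 CPM in BM-MSC, against 129.9 CPM in PBMC. Of the 11 subunits, 8 were called lower and 1 higher in BMAC than in PBMC, 8 lower and 3 higher in BM-MSC than in PBMC, and none of 4 at the floor differed by the rule in BMAC against BM-MSC. Over all symbols 14.0% were higher and 12.8% lower in BMAC than in PBMC, and 14.3% higher and 15.7% lower in BM-MSC. The median log2 ratios of the subunits were -3.80 in BMAC over PBMC, -4.40 in BM-MSC over PBMC and -0.12 in BMAC over BM-MSC. ITGA4, ITGB7, ITGAM, ITGAX, ITGAD, ITGB2 and ITGA9 reached the floor through PBMC alone, and so did ITGAL in BM-MSC against PBMC. A call towards PBMC was the 1 call open to them, which covers 7 of the 8 lower calls in BMAC and all 8 in BM-MSC, so these counts and medians carry no weight as a direction of the list.

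The other partners held genes called in both directions. CD6, the T cell receptor of ALCAM, which overlaps LOC110259252, had 1 count in BMAC and 0 in BM-MSC, against 106 CPM in PBMC. CD38, an ectoenzyme and partner of PECAM1, stood at 1.26 CPM in BMAC and 0.469 CPM in BM-MSC, against 135 CPM in PBMC. SPN (CD43), a sialoglycoprotein that binds ICAM1, had 0 counts in BMAC and BM-MSC, against 86.2 CPM in PBMC. ALCAM and CD6 were thus both highest in the PBMC library. LAMA4, the laminin chain that MCAM binds, was higher in marrow, with 367 CPM in BMAC and 137 CPM in BM-MSC, against 1.29 CPM in PBMC. It was 2.67-fold higher in BMAC than in BM-MSC (2.54 to 2.80). The other partners called towards marrow, named after their values were seen, were FGFR1, a growth factor receptor, with 1436 counts in BMAC and 1033 in BM-MSC, against 56 in PBMC, and LGALS3, galectin-3, at 272 CPM in BMAC and 226 CPM in BM-MSC, against 2.91 CPM in PBMC. Of 7 such partners at the floor, 3 were called higher and 3 lower in BMAC than in PBMC, and likewise in BM-MSC. The medians were 0.55 and 0.64. Over all symbols 14.0% were higher and 12.8% lower in BMAC, and 14.3% higher and 15.7% lower in BM-MSC. CD6, CD38 and SPN reached the floor through PBMC alone, and LAMA4, FGFR1 and LGALS3 through marrow alone. Each of these had 1 call open to it, so the counts carry no weight as a direction of the list. None of 4 differed by the rule in BMAC against BM-MSC, with a median of 0.45.

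**Figure D4:**
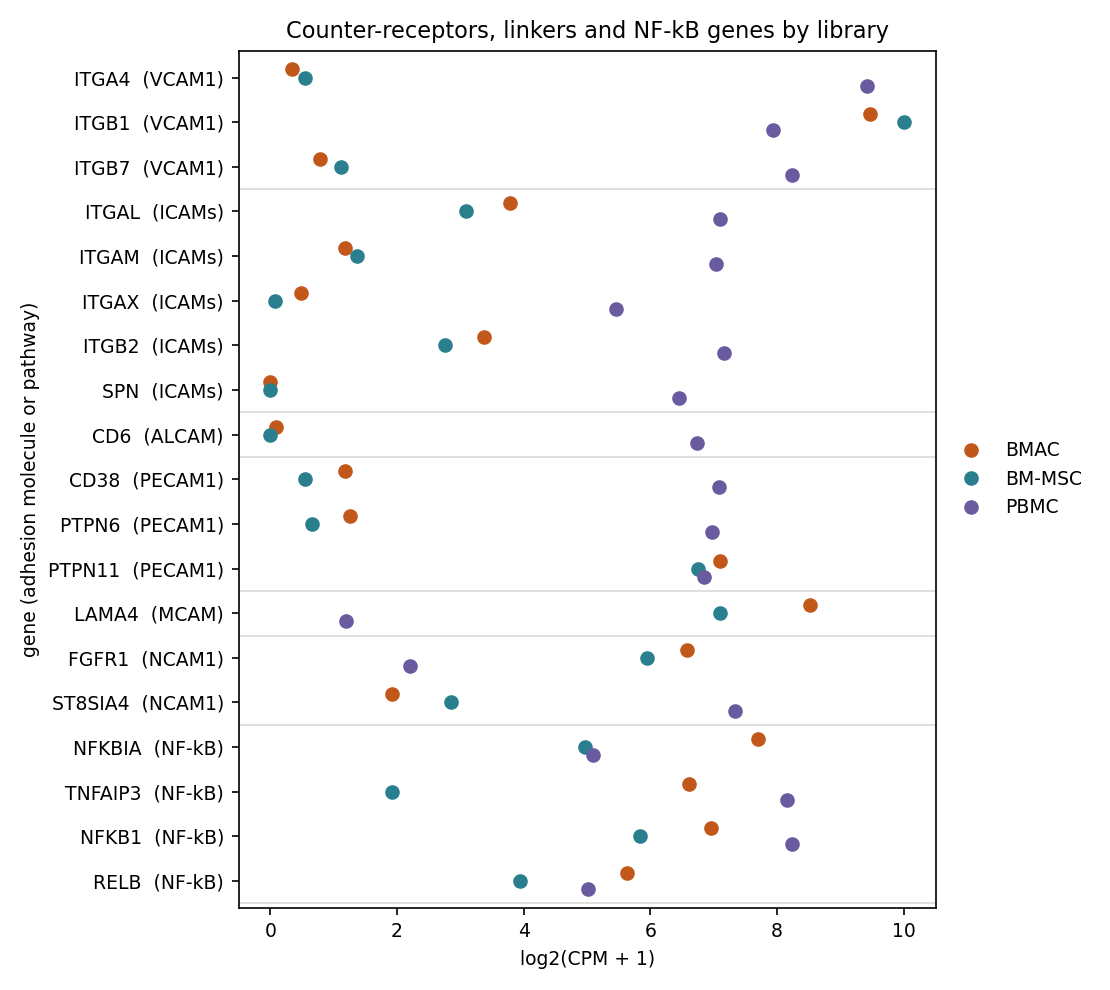
Level of counter-receptors, linkers and NF-kB pathway genes as log2(CPM + 1) (horizontal axis) in BMAC, BM-MSC and PBMC, 1 library each, grouped by the adhesion molecule they act with. ITGA4 is at 687 CPM in PBMC and below 1 CPM in both marrow libraries, whereas NFKBIA is highest in BMAC at 206 CPM.

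Cytoplasmic linkers tie the tails of these molecules to actin or to phosphatases. Of 14 at the floor, 2 were called higher and 1 lower in BMAC than in PBMC, and 3 higher and 3 lower in BM-MSC than in PBMC, with medians of 0.14 and 0.25. Over all symbols 14.0% were higher and 12.8% lower in BMAC, and 14.3% higher and 15.7% lower in BM-MSC. None of 13 differed by the rule in BMAC against BM-MSC, with a median of -0.40. In that pair 3.21% of all symbols were higher and 2.90% lower. PTPN6 (SHP-1), a phosphatase that docks on the PECAM1 tail, stood at 1.39 CPM in BMAC and 0.586 CPM in BM-MSC, against 125 CPM in PBMC. JUP, encoding plakoglobin, stood at 48.5 CPM in BMAC and 108 CPM in BM-MSC, against 6.28 CPM in PBMC. VAV2 stood at 20.6 CPM in BMAC and 7.38 CPM in BM-MSC, against 81.9 CPM in PBMC. ACTN4, an alpha-actinin, stood at 300.1 CPM in BMAC and 586 CPM in BM-MSC, against 74.0 CPM in PBMC. FYN, named after its values were seen, stood at 246 CPM in BMAC and 132 CPM in BM-MSC, against 675 CPM in PBMC. Like PTPN6 and VAV2, it was called lower in BM-MSC than in PBMC. PTPN6 reached the floor through PBMC alone and JUP through marrow alone. In BM-MSC against PBMC, VAV2 also reached it through PBMC alone. Only a call towards that side was open to these genes, whereas FYN and ACTN4 were above the floor in every library. The counts thus carry no weight as a direction of the list.

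Proteases and inhibitors that govern shedding of surface proteins were counted next. Of 6 at the floor, 3 were called higher and 0 lower in BMAC than in PBMC, and likewise in BM-MSC. The medians were 2.27 and 2.60. Over all symbols 14.0% were higher and 12.8% lower in BMAC, and 14.3% higher and 15.7% lower in BM-MSC. The 3 were TIMP3, MMP14 and BACE1, which reached the floor through marrow alone. A call towards marrow was the 1 call open to them, so these counts and medians carry no weight as a direction. None was called in BMAC against BM-MSC, with a median of 0.08, beside 3.21% higher and 2.90% lower over all symbols. TIMP3, an inhibitor of ADAM17 whose row overlaps SYN3 with nearly equal counts, stood at 1569 CPM in BMAC and 1023 CPM in BM-MSC, against 0.388 CPM in PBMC. MMP14, a membrane-bound matrix metalloproteinase, stood at 395 CPM in BMAC and 359.8 CPM in BM-MSC, against 0.324 CPM in PBMC. BACE1 stood at 34.9 CPM in BMAC and 53.8 CPM in BM-MSC, against 4.08 CPM in PBMC, and ADAM9 at 249, 259 and 74.8 CPM. ADAM10, a further sheddase named after its values were seen, stood at 293 CPM in BMAC and 263 CPM in BM-MSC, against 343 CPM in PBMC, and was 1.17-fold (1.13 to 1.22) lower in BMAC and 1.30-fold (1.25 to 1.36) lower in BM-MSC than in PBMC. ADAM17, a sheddase of VCAM1, ICAM1 and ALCAM that overlaps IAH1, was level, at 59.1 CPM in BMAC, 58.3 CPM in BM-MSC and 59.2 CPM in PBMC.

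ST8SIA4, 1 of the enzymes that add polysialic acid to NCAM1, was highest in PBMC, whereas NCAM1 was highest in BM-MSC. Both genes were lowest in BMAC. ST8SIA4 stood at 2.78 CPM in BMAC and 6.21 CPM in BM-MSC, against 160.4 CPM in PBMC, and was the 1 polysialylation gene of 3 at the floor. ST8SIA2 had 4 to 9 counts in each library and ST8SIA3 had 0. ST8SIA4 was called lower in BMAC and in BM-MSC than in PBMC, with log2 ratios of -5.42 and -4.48. It reached the floor through PBMC alone, so this was the 1 call open to it.

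Genes of the NF-kB and interferon pathways that act on VCAM1 and ICAM1 were set beside them. NFKBIA, the feedback inhibitor of NF-kB and itself an NF-kB target, stood at 206 CPM in BMAC and 30.2 CPM in BM-MSC, against 33.3 CPM in PBMC. It was 6.82-fold higher in BMAC than in BM-MSC (6.21 to 7.50). TNFAIP3 (A20), a further feedback inhibitor, stood at 96.3 CPM in BMAC and 2.81 CPM in BM-MSC, against 286 CPM in PBMC, and was 34.2-fold higher in BMAC than in BM-MSC (25.7 to 46.7). BMAC thus exceeded BM-MSC in both inhibitors, as it did in VCAM1, while ICAM1 was level between them. All 5 subunit genes were higher in BMAC than in BM-MSC by less than the rule. RELA was 3.89-fold higher (3.18 to 4.80), RELB 3.40-fold (2.94 to 3.94), REL, which overlaps PUS10, 2.78-fold (2.40 to 3.23), NFKB1 2.20-fold (2.03 to 2.38) and NFKB2, which overlaps LOC106506113, 1.80-fold (1.49 to 2.18).

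Of 12 genes in this pathway list, 2 were called higher and 0 lower in BMAC than in BM-MSC, with a median of 0.96. Over all symbols in that pair, 3.21% were higher and 2.90% lower. In BMAC against PBMC 1 was higher and 1 lower, with a median of -0.47, beside 14.0% and 12.8% over all symbols. In BM-MSC against PBMC 0 were higher and 3 lower, with a median of -1.19, beside 14.3% and 15.7%. The 3 lower genes were NFKB1, REL and TNFAIP3. TNFAIP3 stayed below 10 CPM in BM-MSC, so 1 call was open to it in both pairs with that library. The list and the members were chosen with these values known, and whether the pathway acts on VCAM1 here was not tested.

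The list of other adhesion genes of the superfamily held 65 names, 61 with a row. In BMAC against PBMC 7 were called higher and 11 lower of 35 at the floor, with a median of -0.61, beside 14.0% higher and 12.8% lower over all symbols. In BM-MSC against PBMC 9 were higher and 9 lower of 36, with a median of -0.72, beside 14.3% and 15.7%. In BMAC against BM-MSC 0 were higher and 2 lower of 25, with a median of 0.05, beside 3.21% and 2.90%. The 2 were DSCAML1 and EMB, named after their values were seen, and both reached the floor in that pair through BM-MSC alone. Genes such as CD48, CD2 and SLAMF6 reached it through PBMC alone, and NECTIN3, CLMP and KIRREL through marrow alone. Only a call towards that side was open to each of them. The counts and medians thus carry no weight as a direction of the list.

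The leading genes towards blood were receptors of lymphocytes. CD48 had 0 counts in BMAC and BM-MSC, against 209 CPM in PBMC. CD2, whose partner in humans is CD58, stood at 0.331 CPM in BMAC and 0.234 CPM in BM-MSC, against 184 CPM in PBMC. SLAMF6 stood at 0.463 CPM in BMAC and 0.469 CPM in BM-MSC, against 116 CPM in PBMC. Towards marrow the leading gene by its largest log2 ratio in any pair was NECTIN3, a junctional nectin. It stood at 255 CPM in BMAC and 381 CPM in BM-MSC, against 3.43 CPM in PBMC. In BMAC over PBMC alone, KIRREL and CLMP had larger log2 ratios, 6.19 and 6.05 against 5.85 for NECTIN3. EMB (embigin) stood at 4.03 CPM in BMAC and 28.0 CPM in BM-MSC, against 47.7 CPM in PBMC, which is the same order of libraries as for ALCAM.

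Genes with patterns most like each member were ranked by the largest difference between centred log2(CPM + 1) values over the 3 libraries, among 10448 other symbols at 10 CPM in a library, without unnamed LOC rows and transfer RNAs. For VCAM1 these were the collagenase gene MMP1 (difference 0.195; 144 CPM in BMAC, 1.41 CPM in BM-MSC and 0.129 CPM in PBMC), the peptidase gene LVRN (0.303) and the cytokine gene IL1A (0.362). For NCAM1 they were PCLO, which encodes a presynaptic scaffold (0.341), MGP, matrix Gla protein (0.416), and MAP2 (0.576). For ALCAM they were VSIR (0.282), LIX1 (0.485) and TNFAIP8 (0.491). Few symbols came this close to these 3 genes: 4 lay within 0.5 of VCAM1, 2 within 0.5 of NCAM1 and 3 within 0.5 of ALCAM.

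The other members had common patterns. Within 0.5 lay 437 symbols for ICAM1, 266 for ICAM2, 190 for ICAM3, 352 for PECAM1 and 948 for MCAM. The nearest were LHFPL2, CD109 and TMED3 for ICAM1, E2F2, RAB11FIP4 and SIGLEC5 for ICAM2, ITPKB, BTK and TNFSF13B for ICAM3, PPM1B, CDRT4 and KCNQ5 for PECAM1, and AGTPBP1, SYT14 and KLHL15 for MCAM. Over 3 libraries such likeness is a description of levels.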

How the data were processed

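The authors deposited raw counts per gene row: all values are whole and the totals differ. Per the submitters' processing notes, Bowtie2 and bedtools were used, in roles and versions that are not stated. Build, annotation, strand setting and the handling of reads with several matches are likewise not given in the sources used. The 26965 rows were summed to 26466 symbols, all of them in the RefSeq table of Sscrofa11.1, which served for names, overlaps and neighbours only. Each member had 1 row. Counts were divided by the library total (CPM). Folds are ratios of CPM without pseudocount, with exact conditional (Clopper-Pearson) 95% intervals; level intervals are exact Poisson ones. A library at 0 is taken as 3 counts, or 0.198 CPM in BMAC, 0.176 CPM in BM-MSC and 0.194 CPM in PBMC. No molecular identifiers are stated, so intervals cover counting error only.

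The 8 members, 7 partner lists and 6 marker lists were chosen with earlier results of these data known. Of 187 listed genes 6 had no row under their symbol or a synonym and were not analysed here. Named by rule were all members and the 3 genes most like each member. Of each list, so were up to 4 genes with the largest log2 ratio in any pair among those at 10 CPM. Other listed genes, such as ITGB1, ITGAL, ITGB2, RELA, RELB, NFKB2 and ADAM17, were named outside this rule, with their values known. Overlaps are named where the other row held at least 25% of the gene's count. The size rule was tested on simulated data. Alternatives were TMM (edgeR 4.0.16) and median-of-ratios factors, totals without ribosomal and mitochondrial rows, pseudocounts of 0.5 and 5 CPM, floors of 1 and 50 CPM or none, rules of 2-fold and 8-fold, and leaving out overlapped members. Analyses used Python 3.11.15 and scipy 1.17.1.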

Additional observations from a re-analysis of the deposited data

How the results depend on the processing

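No call of a member changed its direction under any alternative run. ICAM2, just above the floor in PBMC, was no longer called against PBMC with TMM factors, median-of-ratios factors, a pseudocount of 5 CPM or a floor of 50 CPM, since it then missed the floor or the fold. ALCAM was no longer called in BMAC against BM-MSC with a floor of 50 CPM or an 8-fold rule. MCAM was called lower in BMAC and BM-MSC than in PBMC with a 2-fold rule. With an 8-fold rule ICAM1 was not called against PBMC in either pair, nor PECAM1 in BMAC against PBMC, which left 1 member higher in BMAC and 1 higher in BM-MSC than in PBMC. In BMAC against BM-MSC 1 member was lower with the 8-fold rule and 1 with the floor of 50 CPM. No floor or pseudocount alternative moved VCAM1 or NCAM1 out of its calls.

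Over all symbols the median log2 ratio of BMAC over PBMC was -0.120, and 0.151 and 0.161 under TMM and median-of-ratios scaling; of BM-MSC over PBMC it was -0.161, and 0.160 and 0.184. The summed level of the members was 423 CPM in BMAC, 439 CPM in BM-MSC and 602 CPM in PBMC with TMM, 422, 443 and 597 CPM with median-of-ratios factors, and 354, 342 and 519 CPM without MCAM. The members' median log2 ratio in BMAC over PBMC was -1.84 with TMM, -1.83 with median-of-ratios factors, -1.80 with a pseudocount of 5 CPM, -2.11 with a floor of 1 CPM, of 50 CPM or none, and -2.94 without MCAM. In BM-MSC over PBMC it was -1.97, -1.94 and -1.71 under the first 3 of these and -2.30 with each floor alternative. In BMAC over BM-MSC it was -0.35 with a floor of 1 CPM and 0.06 without MCAM, so its sign turned.

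The partner lists together held 121 genes with a row, of which those at the floor could be called. Of these, 17 were higher and 25 lower in BMAC than in PBMC, 21 and 27 in BM-MSC against PBMC, and 2 and 2 in BMAC against BM-MSC. The shares over all symbols at the floor were 14.0% and 12.8%, 14.3% and 15.7%, and 3.21% and 2.90%. Genes such as most of the integrins had 1 call open to them, so the pooled counts carry no weight as a direction. With a 2-fold rule 27 were higher in BMAC than in PBMC, 41 lower in BM-MSC than in PBMC, and 14 higher and 6 lower in BMAC than in BM-MSC. With an 8-fold rule 11 were higher in BMAC and 12 higher in BM-MSC than in PBMC, and 1 higher and 0 lower in BMAC than in BM-MSC. Lower genes in BMAC against BM-MSC were also 0 with a pseudocount of 5 CPM and with a floor of 50 CPM. These counts follow from the rule's own fold, floor or pseudocount. No paired analysis was possible because each population has 1 library.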

Other observations

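Some adhesion genes of the superfamily that are known from neurons were counted at low levels in all 3 libraries. CADM2 stood at 8.07 CPM in BMAC, 11.5 CPM in BM-MSC and 15.1 CPM in PBMC. OPCML stood at 9.92 CPM in BMAC, 5.39 CPM in BM-MSC and 18.4 CPM in PBMC, and NTM at 9.98, 10.8 and 18.1 CPM. These levels lie near those of PECAM1 in BM-MSC, ICAM2 in PBMC and NCAM1 in PBMC, and what they stand for was not tested. LSAMP, of the same family as OPCML and NTM, differed, at 37.0 CPM in BMAC, 138 CPM in BM-MSC and 17.0 CPM in PBMC.

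Further genes of the superfamily were higher in BMAC than in BM-MSC by less than the 4-fold rule. CLMP, an adhesion molecule related to CXADR, stood at 611 CPM in BMAC and 175 CPM in BM-MSC, against 8.22 CPM in PBMC. KIRREL, a nephrin-like gene, stood at 271 CPM in BMAC and 85.7 CPM in BM-MSC, against 2.72 CPM in PBMC. PTK7, a pseudokinase receptor, stood at 168 CPM in BMAC and 53.8 CPM in BM-MSC, against 2.65 CPM in PBMC. CD96, known as a receptor of T and NK cells, stood at 83.4 CPM in BMAC and 26.1 CPM in BM-MSC, against 29.5 CPM in PBMC. The row ZBED2, which overlaps CD96, stood at 30.9 CPM in BMAC and 23.6 CPM in BM-MSC, against 0.324 CPM in PBMC, so the CD96 value is uncertain. The genes in both paragraphs were chosen after their values were seen.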
